A study of Mus musculus with 6 samples.

Results

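The 35 genes described here serve the endoplasmic reticulum (ER): they encode its stress sensors, the transcription factors those sensors control, and the machinery that folds, moves or discards its proteins. They were chosen by gene symbol, a rule that uses no measured value, but the list was drawn up with earlier results of these data known. All 35 were among the 22298 genes of the table, in 36 rows, because Ddit3 has a second row (ENSMUSG00000116429) that held 0.98 counts in TAC replicate 3, was at 0 in every other library and was left aside. Each gene was placed in 1 of 3 arms after the sensor most often tied to it, 18 with ATF6, 10 with IRE1 and 7 with PERK. Many of these genes answer to more than 1 sensor, so the division is a convention. The hearts came from wild-type female mice aged 18 months, with 3 samples from sham-operated mice and 3 from mice that had TAC. TAC in heart research is short for transverse aortic constriction, which narrows the aortic arch and makes the left ventricle pump against a higher pressure. The labels name no strain, no part of the heart and no interval from surgery to sampling. Nor do they say whether the samples of a group came from separate animals, so a p-value reflects only how far these samples spread, which may be technical.

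The ER folds the proteins that a cell secretes or places in its membranes. When unfolded proteins build up there, the chaperone BiP leaves the sensors ATF6, IRE1 and PERK, and the unfolded protein response begins. ATF6 is cut in the Golgi and its released part induces chaperones and parts of ER-associated degradation (ERAD), the route by which misfolded proteins leave the ER for the proteasome. IRE1 splices the messenger RNA of Xbp1, whose product induces ERAD, translocation and secretory genes. PERK phosphorylates eIF2alpha, which slows protein synthesis and favours the translation of ATF4, the factor of the integrated stress response. In heart muscle this response is known to accompany pressure overload and ischaemia. Splicing, cleavage and phosphorylation were not measured, and a count per gene does not separate the spliced from the unspliced form of Xbp1.

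Total estimated counts ranged from 19747265 to 27549838 per library. Heart muscle markers were abundant in every library, among them the myosin gene Myh6 at 11526 to 20273 CPM (counts scaled to library size with TMM, the trimmed mean of M-values). The 8 cardiomyocyte markers summed to 46660.0 to 48050.0 CPM in sham and 47840.0, 42930.0 and 34170.0 CPM in TAC replicates 1, 2 and 3. TAC replicate 1 lay between the other TAC libraries and the sham libraries on the first principal component. TAC replicate 2 stood apart by its plasma cell RNA. Jchain, the joining chain of secreted antibodies, was at 7.59, 6.80 and 3.97 CPM in sham replicates 1, 2 and 3 and 14.3, 1037 and 18.8 CPM in TAC replicates 1, 2 and 3. All 10 plasma cell and B cell markers were highest in TAC replicate 2, their summed level was 36.2 to 41.5 CPM in sham and 43.0, 1179 and 58.1 CPM in TAC replicates 1, 2 and 3, and immunoglobulin genes took 1.5% of its counts against 0.00839% to 0.0367% in the other 5 libraries. Antibody secretion uses much of the same ER machinery, so these values are given again beside the members they move with. In bulk tissue, a change in the number of cells of a type and a change in RNA per cell cannot be told apart.

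A group of 3 ER chaperone genes of the ATF6 arm rose in TAC hearts. Sdf2l1 rose by 4.01-fold, Manf by 2.49-fold and Hspa5, the gene of BiP itself, by 1.76-fold. They were 3 of 34 members tested, where 1.12% of all 13708 tested genes were called higher (edgeR quasi-likelihood test, adjusted p under 0.05 by Benjamini-Hochberg). None of the 34 was called lower, where 0.540% of all tested genes were. No member was lower at an unadjusted p under 0.05 either, and DESeq2 and limma-voom called none lower (4.06% and 0.547% of the genes each tested were). Of the 34, 30 had a positive log2 fold change, as did 7256 of all 13708 tested genes. The median over the 34 was 0.37, against 0.03 over all tested genes. In 20 members every TAC value lay above every sham value, as in 18.4% of all tested genes, and in 1 member, Chac1, every TAC value lay below, as in 13.1%. At an unadjusted p under 0.05, 19 members were higher, as were 16.3% of all tested genes. DESeq2's Wald test called 12 members higher (7.26% of the genes it tested) and limma-voom called 2, Hspa5 and Manf (0.700%).

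The 3 arms differed in their medians. The median log2 fold change was 0.54 over the 17 tested members of the ATF6 arm, 0.47 over the 10 of the IRE1 arm and 0.18 over the 7 of the PERK arm. In the ATF6 arm, 12 of 17 members had no overlap between the groups and were higher in TAC, and 5 overlapped. In the IRE1 arm the numbers were 6 and 4. In the PERK arm 2 were above, 1 was below and 4 overlapped. Over all tested genes 18.4% were above and 13.1% below. The difference between arms was not tested. Derl3, the member that did not pass the filter on low counts, is described beside the plasma cell markers.

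**Figure D1:**
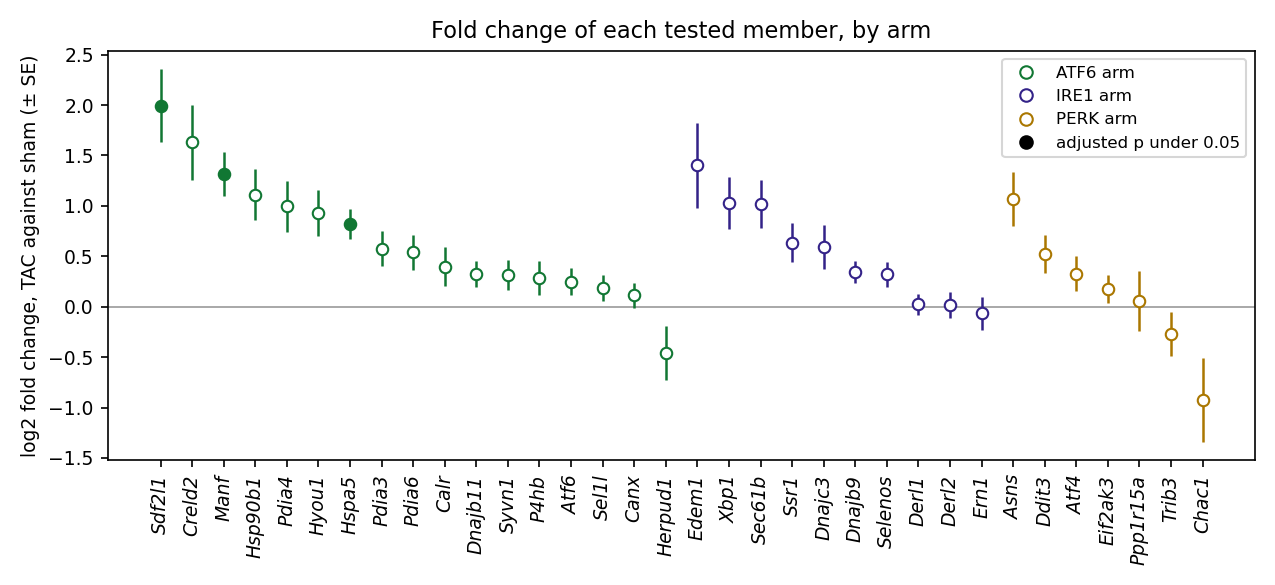
Log2 fold change of TAC against sham (vertical axis, edgeR) for the 34 tested members, ordered by arm (colour) and size, with bars of 1 SE on each side and filled points for an adjusted p under 0.05. The 3 filled points, Sdf2l1, Manf and Hspa5, are in the ATF6 arm, and Chac1 at -0.92 is the lowest point.

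Hspa5 encodes BiP, the ATP-driven Hsp70 chaperone of the ER lumen that also holds the 3 sensors inactive. The gene (ENSMUSG00000026864, chromosome 2, 34771970 to 34777547, plus strand in GRCm38) stood at 294, 301 and 268 CPM in sham replicates 1, 2 and 3 and 424, 562 and 537 CPM in TAC replicates 1, 2 and 3. All 3 TAC values were above all 3 sham values, and TAC replicate 1 was the lowest of the TAC values. Its mean was 288 ± 17.6 CPM over the sham libraries and 507 ± 73.7 CPM over the TAC libraries (SD, n = 3), a difference of 0.82 on the log2 scale (SE 0.15; adjusted p = 0.0436, edgeR). Manf (ENSMUSG00000032575, chromosome 9, 106838312 to 106891979, minus strand), a small secreted protein of the ER that binds BiP and protects stressed cells, heart muscle cells among them, was at 23.9, 21.4 and 22.1 CPM in sham replicates 1, 2 and 3 and 38.2, 58.0 and 71.8 CPM in TAC replicates 1, 2 and 3. The groups did not overlap, and the TAC values were more widely spread than the sham values. The difference was 1.32 on the log2 scale (SE 0.22; adjusted p = 0.0336, edgeR). At most 146 of the 3524 exonic bases of Manf are shared with a neighbour, Dcaf1 or Rbm15b. Sdf2l1 (ENSMUSG00000022769, chromosome 16, 17130138 to 17132383, minus strand) encodes a partner of the ER Hsp40 cochaperones that keeps client proteins soluble. It was at 2.26, 3.31 and 2.40 CPM in sham replicates 1, 2 and 3 and 5.62, 11.3 and 15.1 CPM in TAC replicates 1, 2 and 3, again with no overlap, and was the member with the largest fold change tested, a difference of 1.99 on the log2 scale (SE 0.36; adjusted p = 0.0419, edgeR). It was a rare transcript, with 44 to 90 counts per sham library and 138 to 354 per TAC library.

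These 3 calls were lost in several alternatives. With every library kept, the adjusted p-values of Hspa5, Manf and Sdf2l1 were 0.0575, 0.0574 and 0.0589 with limma-trend on log2 FPKM with a pseudocount of 0.1, and 0.0574, 0.0573 and 0.0685 with one of 1. Hspa5 was at 0.0547 in edgeR with no filter on low counts, and Sdf2l1 at 0.0831 with limma-voom. When any 1 library other than TAC replicate 1 was left out, which also leaves fewer samples, none of the 3 stayed under the threshold, with adjusted p-values of 0.0502 to 0.251. Few genes of any kind were called higher then: 0.0430%, 0.0503% and 0.0287% of those tested without sham replicates 1, 2 and 3, and 0.145% and 0.590% without TAC replicates 2 and 3. Without TAC replicate 1, 18 members were higher, where 13.2% of all tested genes were, and 2, Herpud1 and Chac1, were lower, where 1392 of 13907 tested genes were. The sizes moved less than the calls. Over 14 alternative fits the log2 fold change ranged from 0.71 to 0.92 for Hspa5, from 1.09 to 1.51 for Manf and from 1.56 to 2.28 for Sdf2l1, and their adjusted p-values from 1.81e-05, 3.21e-06 and 1.52e-05 to 0.251, 0.194 and 0.229. Without TAC replicate 2, the library rich in plasma cell RNA, they were 0.71, 1.26 and 1.92 in edgeR.

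None of the other 8 chaperones and cochaperones passed, and all had a positive log2 fold change. Hsp90b1 encodes GRP94, the Hsp90 of the ER. It was at 151, 136 and 110.0 CPM in sham replicates 1, 2 and 3 and 192, 388 and 279 CPM in TAC replicates 1, 2 and 3, and it had a difference of 1.11 on the log2 scale (SE 0.25; adjusted p = 0.0627, edgeR). Hyou1, the large Hsp70 that reloads BiP with ATP, was at 39.8, 44.5 and 38.8 CPM in sham and 53.9, 73.0 and 107 CPM in TAC, with a log2 difference of 0.93 (SE 0.23, adjusted p = 0.0699). TAC replicate 2 was the highest for Hsp90b1 and TAC replicate 3 for Hyou1, and neither gene overlapped between groups. Creld2, an ER protein induced by unfolded proteins, was at 7.75, 9.09 and 6.19 CPM in sham and 11.7, 36.6 and 23.3 CPM in TAC and had a difference of 1.63 on the log2 scale (SE 0.37; adjusted p = 0.0630, edgeR). It was highest in TAC replicate 2, and without that library its log2 fold change was 1.15. Among the J-domain cochaperones of BiP, Dnajb11 was at 42.9, 47.6 and 45.6 CPM in sham and 48.3, 58.0 and 64.0 CPM in TAC, without overlap (a log2 difference of 0.32 with SE 0.13, adjusted p = 0.170, edgeR). Dnajb9 was at 50.3, 47.3 and 45.6 CPM in sham and 57.5, 64.8 and 59.1 CPM in TAC, also without overlap (a log2 difference of 0.34 with SE 0.11, adjusted p = 0.102). Dnajc3, at 34.2, 37.1 and 30.3 CPM in sham and 34.7, 66.2 and 52.6 CPM in TAC (a log2 difference of 0.59 with SE 0.22, adjusted p = 0.145), overlapped, with TAC replicate 1 among the sham values.

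The lectin chaperones hold glycoproteins until they fold, and neither passed. Calr, calreticulin, was at 265, 265 and 276 CPM in sham replicates 1, 2 and 3 and 303, 291 and 469 CPM in TAC replicates 1, 2 and 3. Only TAC replicate 3 stood far from the sham values, with a log2 difference of 0.40 (SE 0.20, adjusted p = 0.241) in edgeR and 0.13 without that library. Canx, calnexin, its membrane-bound relative, overlapped between the groups at 205, 210.5 and 189.7 CPM in sham and 212, 204 and 238 CPM in TAC (a log2 difference of 0.11 with SE 0.12, adjusted p = 0.594). Protein disulfide isomerases form and shuffle the bonds between cysteines. In all 4 every TAC value lay above every sham value, as in 18.4% of all tested genes, and none passed. Pdia4 (ERp72) was at 46.6, 40.5 and 36.4 CPM in sham and 49.8, 93.4 and 103 CPM in TAC, with a difference of 0.99 on the log2 scale (SE 0.25; adjusted p = 0.0733, edgeR). Pdia3 (ERp57), the partner of the lectin chaperones, was at 162, 152 and 133 CPM in sham and 188, 201 and 277 CPM in TAC, with a log2 difference of 0.58 (SE 0.17, adjusted p = 0.0976). Pdia6 (P5) was at 90.5, 86.3 and 87.8 CPM in sham and 108, 109 and 167 CPM in TAC, with a log2 difference of 0.54 (SE 0.18, adjusted p = 0.113). P4hb (PDI, also the beta subunit of collagen prolyl hydroxylase) was at 299.7, 311 and 315 CPM in sham and 330.0, 331 and 468 CPM in TAC, with a log2 difference of 0.29 (SE 0.17, adjusted p = 0.314). Pdia6, P4hb and Calr share a pattern in which TAC replicates 1 and 2 lie close together and TAC replicate 3 lies well above them. Without TAC replicate 3 the log2 fold changes were 0.29, 0.08 and 0.13. Fibroblast markers were mixed in this library. Of 8, Pdgfra, Col1a1 and Col3a1 were highest of all libraries in TAC replicate 3, Col3a1 at 627, 467 and 686 CPM in sham and 327, 376 and 827 CPM in TAC, while Dcn, Lum and Tcf21 were lowest there, Dcn at 994, 945 and 964 CPM in sham and 889, 1094 and 558 CPM in TAC. The 8 summed to 1692, 1997 and 2016 CPM in TAC replicates 1, 2 and 3, a sum made mostly of Dcn and Col3a1, and to 1898 to 2292 CPM in sham. The part of fibroblasts in the pattern was not tested.

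**Figure D2:**
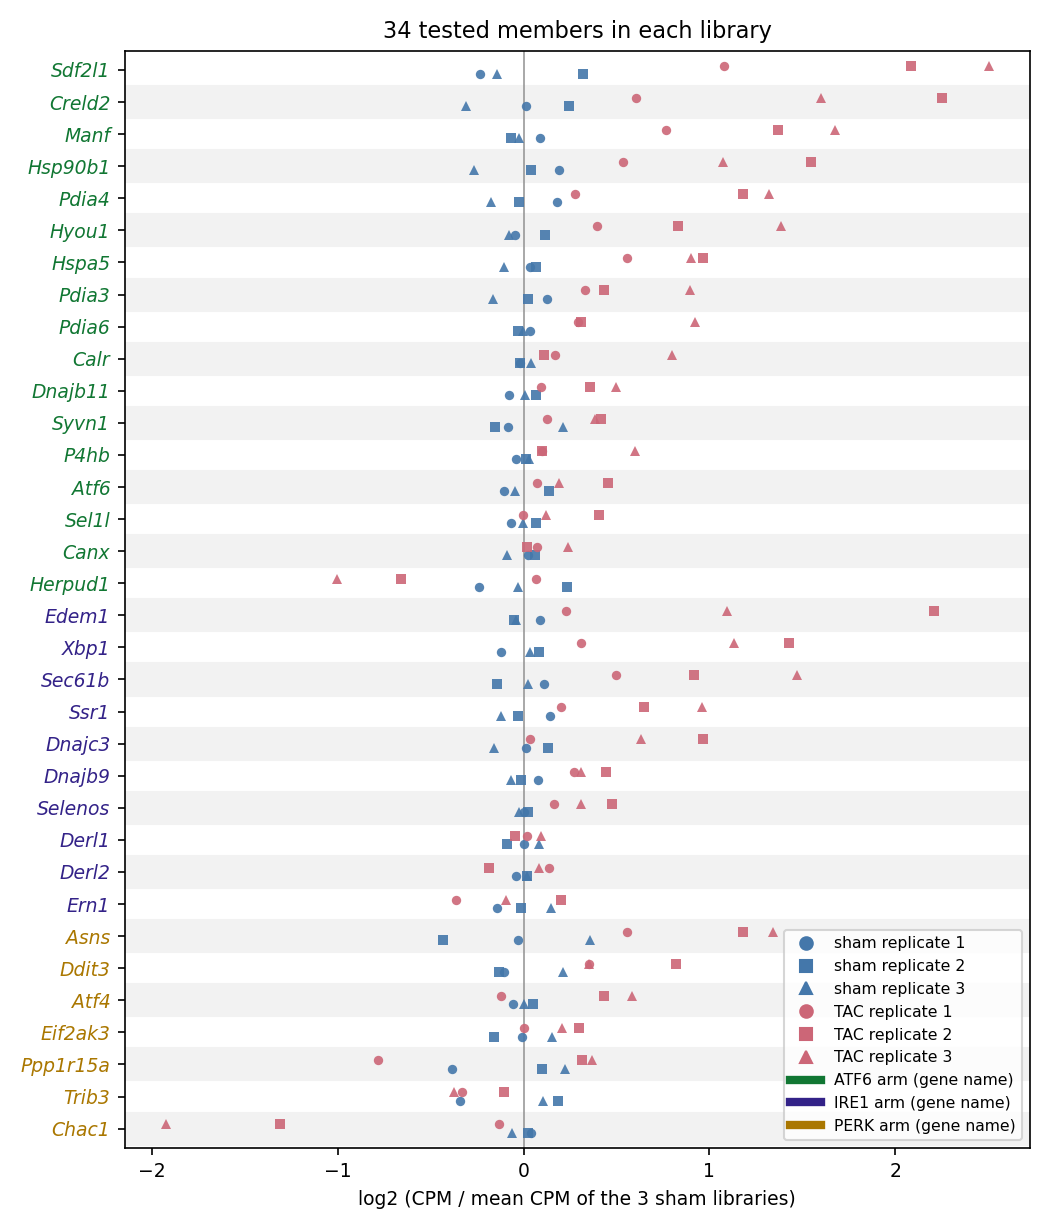
Level of each tested member in each library, as log2 of CPM over the mean of the 3 sham libraries (horizontal axis), with sham in blue, TAC in red, the replicate by marker shape and the arm by the colour of the gene name. The red circles of TAC replicate 1 lie nearest to the blue sham points in most rows, and the squares and triangles of TAC replicates 2 and 3 change places from gene to gene.

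Sequence elements read by ATF6 were common in the promoters of these genes. The ER stress element (ERSE) reads CCAAT, 9 bases of any kind and CCACG, and its shorter form ERSE-II reads ATTGG, any base and CCACG. Both were searched on both strands in RefSeq windows of 300 bases around annotated starts (250 before and 50 after, GRCm38.p6), which covered 31 of the 35 members, all but Manf, Hyou1, Atf6 and Derl1. An exact match to either was present in 11 of the 31 members (35.5%) and in 49 of 27025 genes with a window (0.181%). By arm it was present in 10 of 15 ATF6 genes, 1 of 9 IRE1 genes and 0 of 7 PERK genes. No member held both forms. Such elements helped to define the ATF6 targets in the literature, so this is a description of the list. The sites are given here with up to 20 bases on each side (5 for Hspa5), in the direction of the gene with the matched letters in capitals. A match on the opposite strand therefore begins with CGTGG, and the site of Dnajb11, which lies past the start, is given without its surroundings. Starts here are those of RefSeq. By the GENCODE annotation the bases printed for Hspa5 and Dnajb11 are exonic.
Hspa5 (chr2:34772020-34772048, plus strand): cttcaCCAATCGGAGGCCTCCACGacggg
Hsp90b1 (chr10:86705513-86705571, minus strand): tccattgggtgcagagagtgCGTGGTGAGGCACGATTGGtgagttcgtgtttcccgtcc
Hsp90b1 (chr10:86705618-86705676, minus strand): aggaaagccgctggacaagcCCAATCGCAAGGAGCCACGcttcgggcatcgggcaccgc
Creld2 (chr15:88819500-88819558, plus strand): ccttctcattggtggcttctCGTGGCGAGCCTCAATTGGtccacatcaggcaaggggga
Pdia6 (chr12:17266471-17266529, plus strand): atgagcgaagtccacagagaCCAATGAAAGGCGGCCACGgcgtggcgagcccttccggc
Calr (chr8:84847055-84847113, minus strand): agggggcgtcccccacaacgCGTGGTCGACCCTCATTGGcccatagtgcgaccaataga
Canx (chr11:50325780-50325838, minus strand): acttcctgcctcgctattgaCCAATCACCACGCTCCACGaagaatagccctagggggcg
Syvn1 (chr19:6046512-6046570, plus strand): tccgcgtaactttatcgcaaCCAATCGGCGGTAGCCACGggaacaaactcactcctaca
Derl3 (chr10:75893222-75893280, plus strand): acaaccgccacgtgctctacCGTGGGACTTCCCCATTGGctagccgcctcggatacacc
Dnajc3 (chr14:118937807-118937865, plus strand): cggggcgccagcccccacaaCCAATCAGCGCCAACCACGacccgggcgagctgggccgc
Herpud1 (chr8:94386357-94386407, plus strand): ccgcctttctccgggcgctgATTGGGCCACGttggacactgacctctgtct
Dnajb11 (chr16:22857852-22857862, plus strand): ATTGGCCCACG
Hspa5 was the only called member with an exact match. A match did not go with one size of difference. The 10 tested members with one had log2 fold changes from -0.46 (Herpud1) to 1.63 (Creld2) with a median of 0.47, and the 20 tested members with a window and no match had a median of 0.34. The called gene Sdf2l1 has a window without an exact match, which says only that these letters are not in that window.

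In the IRE1 arm no member passed in edgeR (0 of 10, where 1.12% of all tested genes were called higher), and 7 were higher at an unadjusted p under 0.05, as were 16.3% of all tested genes. Limma-voom called 0, and DESeq2 called 3 higher (7.26% of the genes it tested), Xbp1, Sec61b and Ssr1. Xbp1 encodes the transcription factor that IRE1 activates by splicing. It was at 68.4, 78.9 and 76.2 CPM in sham replicates 1, 2 and 3 and 92.2, 200.3 and 163 CPM in TAC replicates 1, 2 and 3, with no overlap and a difference of 1.03 on the log2 scale (SE 0.25; adjusted p = 0.0696, edgeR). Edem1, the lectin that hands misfolded glycoproteins to ERAD, was at 25.0, 22.7 and 22.9 CPM in sham replicates 1, 2 and 3 and 27.6, 109 and 50.2 CPM in TAC replicates 1, 2 and 3. It had a difference of 1.40 on the log2 scale (SE 0.42; adjusted p = 0.0960, edgeR), and the value in TAC replicate 2 was 2.17 times that in TAC replicate 3. Sec61b, a subunit of the translocation channel, was at 9.90, 8.31 and 9.33 CPM in sham and 12.9, 17.3 and 25.4 CPM in TAC, with a log2 difference of 1.02 (SE 0.24, adjusted p = 0.0641) in edgeR. Ssr1, of the translocon-associated complex, was at 71.5, 63.5 and 59.6 CPM in sham and 74.5, 102 and 126 CPM in TAC, with a log2 difference of 0.64 (SE 0.19, adjusted p = 0.0942). Both were highest in TAC replicate 3 and neither overlapped between groups. Selenos, a selenoprotein that tethers the ATPase p97 to the ER, differed little but without overlap, at 20.2, 20.5 and 19.8 CPM in sham and 22.6, 28.0 and 25.0 CPM in TAC (a log2 difference of 0.32 with SE 0.13, adjusted p = 0.159).

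Some members were highest in TAC replicate 2, the library with the most plasma cell RNA. Derl3, an ERAD channel relative that is abundant in secretory cells, had 3, 9 and 4 counts in sham replicates 1, 2 and 3 and 1, 332 and 9 counts in TAC replicates 1, 2 and 3. With high counts in 1 library only, it did not pass the filter on low counts. Only TAC replicate 2 was high, and TAC replicates 1 and 3 lay around the sham counts. Mzb1, an ER cochaperone of plasma cells, was at 0.616, 0.589 and 0.785 CPM in sham replicates 1, 2 and 3 and 0.896, 52.0 and 2.08 CPM in TAC replicates 1, 2 and 3. Of the 10 members of the IRE1 arm 6 and 6 of the 17 tested members of the ATF6 arm were at their highest in TAC replicate 2, as were 21.6% of all tested genes. In TAC replicate 3 the numbers were 3 of 10 and 10 of 17, against 26.8% of all tested genes. Of 10 macrophage markers, 7 were also highest in TAC replicate 2. Without TAC replicate 2 the log2 fold change was 0.70 for Edem1, 0.75 for Xbp1, 0.80 for Hsp90b1 and 0.34 for Dnajc3, against 1.40, 1.03, 1.11 and 0.59 with it. In TAC replicate 3, where the plasma cell and B cell markers summed to 58.1 CPM, Edem1 was at 50.2 CPM and Xbp1 at 163 CPM, above every sham value. How much of the values in TAC replicate 2 came from plasma cells, or from macrophages, was not tested.

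**Figure D3:**
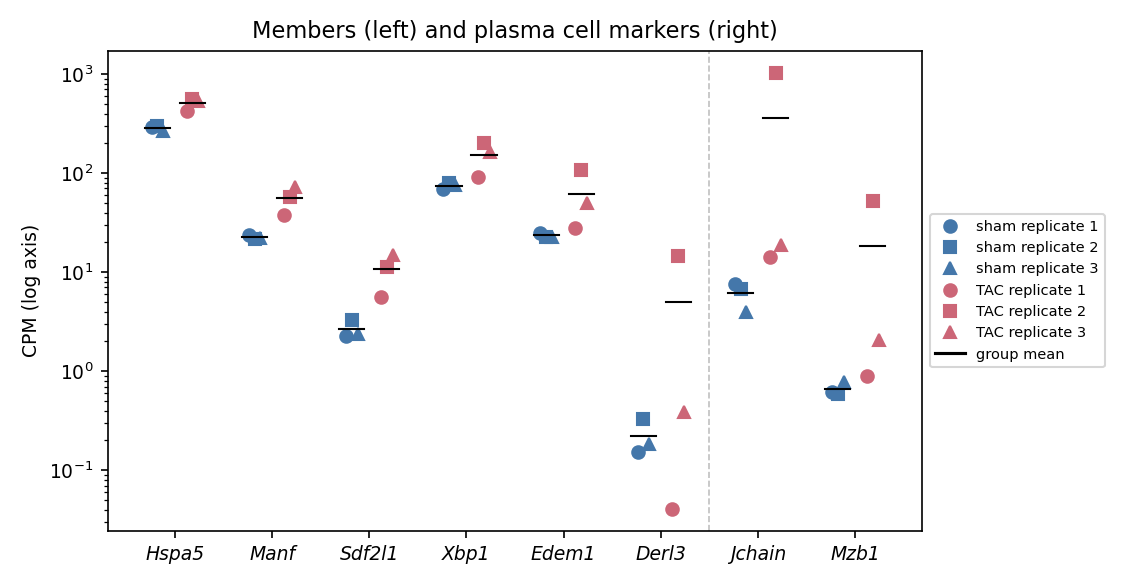
CPM (log axis) of 6 members and of the plasma cell markers Jchain and Mzb1 in the 3 sham (blue) and 3 TAC (red) libraries, with black lines for the group means. The square of TAC replicate 2 is far above all other points for Derl3, Jchain and Mzb1, stands above the other TAC values for Xbp1 and Edem1, and lies among them for Manf and Sdf2l1.

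None of the 7 tested ERAD genes passed. Herpud1, a ubiquitin-like membrane protein of the degradation complex, was at 199, 276 and 231 CPM in sham replicates 1, 2 and 3 and 247, 149 and 117 CPM in TAC replicates 1, 2 and 3. TAC replicate 1 lay within the sham values and TAC replicates 2 and 3 below them, for a difference of -0.46 on the log2 scale (SE 0.27; adjusted p = 0.313, edgeR), and for -0.83 without TAC replicate 1 (adjusted p = 0.0232, over all 14 alternative fits 0.0232 to 0.588). Per unit of length it was among the most abundant members in sham, at 125 ± 22.6 FPKM (fragments scaled to gene length and library size; SD, n = 3), beside Calr at 123 ± 5.73, P4hb at 108 ± 4.88 and Hspa5 at 106 ± 5.19 FPKM. The sham means of Herpud1 and Calr did not differ beyond their spread, nor did those of P4hb and Hspa5. In TAC, Hspa5 was at 188 ± 34.4 and Calr at 164 ± 55.4 FPKM (SD, n = 3), means that did not differ beyond their spread. Syvn1, the ubiquitin ligase HRD1, was at 20.6, 19.6 and 25.3 CPM in sham and 23.8, 29.1 and 28.5 CPM in TAC (a log2 difference of 0.31 with SE 0.15, adjusted p = 0.220, edgeR). Its adaptor Sel1l was at 89.6, 98.5 and 93.6 CPM in sham and 93.8, 124 and 102 CPM in TAC (a log2 difference of 0.19 with SE 0.13, adjusted p = 0.398). Both overlapped between the groups. The channel-like proteins Derl1 and Derl2 were nearly level, Derl1 at 90.2, 84.4 and 95.2 CPM in sham and 91.2, 87.1 and 95.9 CPM in TAC and Derl2 at 27.4, 28.5 and 28.5 CPM in sham and 30.9, 24.7 and 29.8 CPM in TAC. Their log2 fold changes were 0.02 (SE 0.11) and 0.02 (SE 0.13), and with DESeq2 size factors both values were below 0, at -0.00053 and -0.0073.

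The PERK arm was mixed. No member passed in edgeR (0 of 7, where 1.12% of all tested genes were higher). Asns and Ddit3 were higher at an unadjusted p under 0.05, as were 16.3% of all tested genes. DESeq2 called 1 higher, Asns, as it did 7.26% of the genes it tested, and limma-voom called 0. Atf4, the factor that PERK acts through, was at 67.4, 72.5 and 70.1 CPM in sham replicates 1, 2 and 3 and 64.3, 94.6 and 105 CPM in TAC replicates 1, 2 and 3. TAC replicates 2 and 3 were above sham and TAC replicate 1 was not, for a difference of 0.33 on the log2 scale (SE 0.18; adjusted p = 0.276, edgeR). Ddit3 encodes CHOP, a factor tied to cell death under lasting stress. It was at 7.59, 7.47 and 9.47 CPM in sham and 10.4, 14.5 and 10.4 CPM in TAC, without overlap (a log2 difference of 0.53 with SE 0.19, adjusted p = 0.135). Ddit3 shares 105 of its 1713 exonic bases with its second row, and at most that many with Mars on the other strand. Asns, asparagine synthetase, was at 5.29, 4.01 and 6.93 CPM in sham replicates 1, 2 and 3 and 7.94, 12.2 and 13.7 CPM in TAC replicates 1, 2 and 3, with no overlap and a difference of 1.06 on the log2 scale (SE 0.27; adjusted p = 0.0728, edgeR). Chac1, a glutathione-degrading enzyme induced by ATF4, was lower in all TAC libraries, at 4.31, 4.27 and 4.02 CPM in sham replicates 1, 2 and 3 and 3.83, 1.69 and 1.11 CPM in TAC replicates 1, 2 and 3. TAC replicate 1 was just under the sham values and TAC replicates 2 and 3 were far under them. The difference was -0.92 on the log2 scale (SE 0.42; adjusted p = 0.207, edgeR), and -1.59 without TAC replicate 1 (adjusted p = 0.0124, over the 13 alternative fits that tested it 0.0124 to 0.409). Trib3, a pseudokinase target of ATF4 and CHOP, was at 3.39, 4.89 and 4.62 CPM in sham and 3.42, 3.99 and 3.32 CPM in TAC (a log2 difference of -0.27 with SE 0.22, adjusted p = 0.470). Ppp1r15a encodes GADD34, which directs the phosphatase that reverses PERK's mark. It ranged over 25.3, 35.4 and 38.6 CPM in sham and 19.2, 41.2 and 42.8 CPM in TAC, with overlapping groups and a log2 fold change of 0.05 (SE 0.30) that was below 0 with limma-voom and on log2 FPKM.

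The response element of ATF4, searched as TGATGNAAN on both strands of the same windows, was present in 3 of the 7 PERK arm genes, Asns, Chac1 and Trib3, and in Herpud1 among the others. It was present in 4.496% of the 27025 genes with a window. None of these genes passed in edgeR, and the signs of their log2 fold changes differed. The sites are given side by side, in the direction of the gene and with the match in capitals. That of Trib3 lies past the RefSeq start and is given alone. The GENCODE annotation starts some genes elsewhere. By it the Trib3 site is not exonic and the bases printed for Asns are.
Asns (chr6:7693214-7693242, minus strand): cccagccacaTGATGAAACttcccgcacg
Chac1 (chr2:119351028-119351076, plus strand): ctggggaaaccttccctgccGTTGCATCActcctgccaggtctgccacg
Herpud1 (chr8:94386296-94386344, plus strand): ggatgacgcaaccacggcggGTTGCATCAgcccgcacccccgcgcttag
Trib3 (chr2:152344039-152344047, minus strand): TTTACATCA
The log2 fold changes of the 4 genes were 1.06, -0.92, -0.46 and -0.27 in this order. The unfolded protein response element, searched as TGACGTGG, was in no member's window and in 0.714% of all genes with one.

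The genes of the sensors themselves showed small differences. Atf6 was at 92.6, 109.6 and 96.6 CPM in sham replicates 1, 2 and 3 and 105, 137 and 114 CPM in TAC replicates 1, 2 and 3, with a difference of 0.25 on the log2 scale (SE 0.14; adjusted p = 0.284, edgeR). Ern1, the gene of IRE1, was at 21.4, 23.4 and 26.2 CPM in sham replicates 1, 2 and 3 and 18.4, 27.2 and 22.2 CPM in TAC replicates 1, 2 and 3, with a log2 difference of -0.07 (SE 0.17, adjusted p = 0.827). Eif2ak3, the gene of PERK, was at 15.1, 13.6 and 16.9 CPM in sham replicates 1, 2 and 3 and 15.3, 18.8 and 17.6 CPM in TAC replicates 1, 2 and 3, with a log2 difference of 0.18 (SE 0.14, adjusted p = 0.464). In each of the 3 the groups overlapped, and TAC replicate 2 was the highest library. The sign of Ern1 turned positive without sham replicate 3 or without TAC replicate 1 (0.01 and 0.05).

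Most differences were smaller in TAC replicate 1 than in TAC replicates 2 and 3. Of the 20 members whose TAC values were all above sham, TAC replicate 1 was the lowest TAC library in 18, all but Calr and Ddit3. The share of all tested genes with this order was not taken. TAC replicate 1 was also nearer to sham over all tested genes. On their first principal component sham replicates 1, 2 and 3 were at -31.4, -34.4 and -37.27 and TAC replicates 1, 2 and 3 at 0.6527, 48.89 and 53.53. Of the 34 tested members, 14 were highest in TAC replicate 2 and 16 in TAC replicate 3, against 21.6% and 26.8% of all tested genes. The 3 called genes included both kinds, with Hspa5 highest in TAC replicate 2 and Manf and Sdf2l1 in TAC replicate 3. The median coefficient of variation over members was 24.8% in TAC and 8.09% in sham, and the same medians over all tested genes were not taken. Of 7 tested neutrophil markers 3 rose, as did 3 of 10 macrophage markers, where 1.12% of all tested genes were called higher. The 8 neutrophil markers summed to 6.22 to 13.3 CPM in sham and 27.6, 124 and 158 CPM in TAC replicates 1, 2 and 3, and the 10 macrophage markers to 640.1 to 762 CPM and 915, 1366 and 1158 CPM. The neutrophil gene Ly6g was at 0 in all sham libraries and at most 0.304 CPM in TAC. All TAC values lay below sham in 5 of 8 endothelial markers and above in 1, as in 13.1% and 18.4% of all tested genes. For 8 smooth muscle and pericyte markers the numbers were 5 and 0. Tie1, an endothelial marker, was called lower, as were 0.540% of all tested genes. The endothelial markers summed to 1999 to 2158 CPM in sham and 1822, 2011 and 1784 CPM in TAC. The others summed to 1367 to 1615 CPM and 1331, 1276 and 1018 CPM. Whether any of these cells contributed to the ER genes was not tested. Together the members took 0.255% to 0.265% of all counts in sham libraries and 0.287%, 0.373% and 0.427% in TAC replicates 1, 2 and 3.

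**Figure D4:**
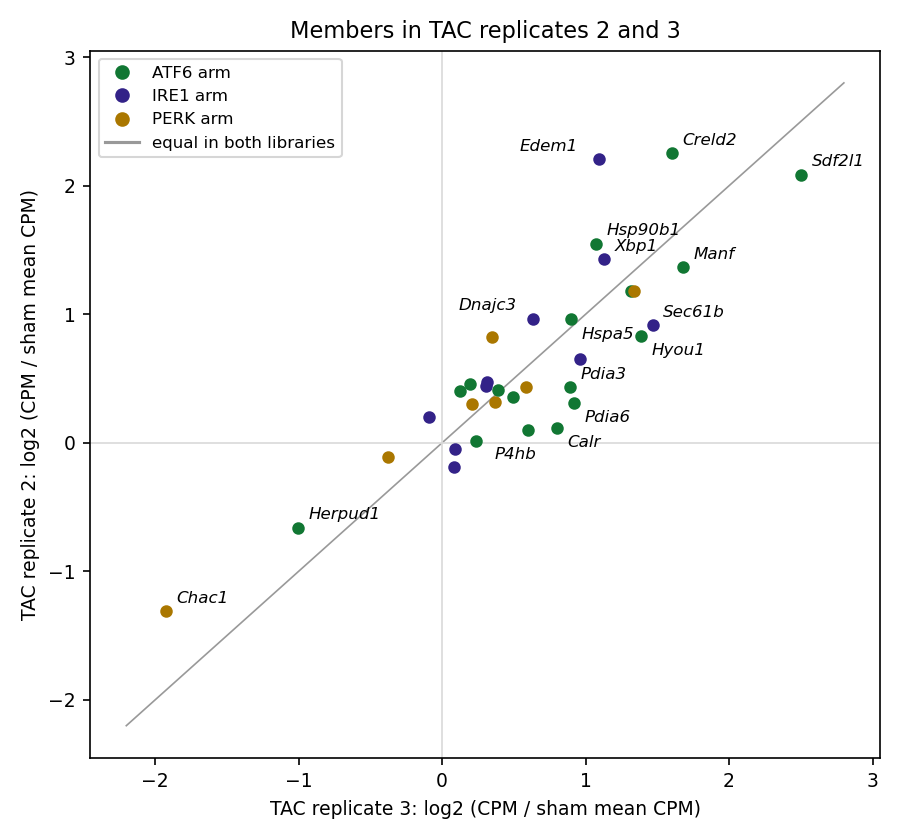
Log2 of CPM over the sham mean in TAC replicate 3 (horizontal axis) and TAC replicate 2 (vertical axis) for the 34 tested members, coloured by arm, with a line of equal values. Both axes share the sham mean. Edem1, Creld2, Hsp90b1 and Xbp1 lie above the line and Calr, P4hb, Pdia6 and Hyou1 below it. Herpud1, Chac1 and Trib3 (not labelled) are under 0 in both libraries.

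The wider ER network was given by 6 further lists of 147 genes, of which 143 were tested. Of these, 3 were higher, 0 lower and 140 did not pass, where 1.12% of all tested genes were called higher. At an unadjusted p under 0.05, 41 were higher and 7 lower, as were 16.3% and 9.26% of all tested genes. DESeq2 called 21 higher and 3 lower, and 7.26% and 4.06% of the genes it tested. Without TAC replicate 1, 40 were higher, where 13.2% of all tested genes were, and 7 lower, where 1392 of 13907 were. With any other library left out 0 or 1 was higher, where 0.0287% to 0.590% of all tested genes were. Their median log2 fold change was 0.16. In 36 of the 143 (25.2%) all TAC values were above sham, as in 18.4% of all tested genes. Of 29 tested foldases and cochaperones 1 rose: Dnajc10, ERdj5, the disulfide reductase that works with BiP in ERAD, was at 59.8, 56.8 and 54.8 CPM in sham replicates 1, 2 and 3 and 89.7, 94.6 and 85.3 CPM in TAC replicates 1, 2 and 3. TAC replicate 1 was as high as the other TAC libraries here, and the difference was 0.65 on the log2 scale (SE 0.10; adjusted p = 0.0320, edgeR). Of 27 genes of translocation, signal cleavage and glycosylation 1 rose, Srp54a, a subunit of the signal recognition particle (a log2 difference of 1.09 with SE 0.17, adjusted p = 0.0327, edgeR), but its counts were fractional and are uncertain between near-identical copies of the gene. The list had a median of 0.23. The 19 further ERAD genes (median 0.11, 0 called), the 20 genes of transport between ER and Golgi (median 0.05, 0 called) and 20 signalling genes of the unfolded protein response (median 0.11, 0 called) held no called gene. Their log2 fold changes ranged from -0.11 to 0.83, from -0.22 to 0.59 and from -0.77 to 0.89. At an unadjusted p under 0.05, 4, 3 and 2 of them were higher, against 16.3% of all tested genes, and 0, 0 and 4 lower, against 9.26%. Their most abundant genes were Vcp, which encodes p97, at -0.09 (SE 0.13), the coat protein adaptor Tmed2 at 0.23 (SE 0.13) and Tmbim6, a membrane protein that restrains IRE1, at -0.15 (SE 0.14).

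Of 28 further integrated stress response genes tested, 1 rose: Cebpg, the partner of ATF4 on DNA, was at 17.0, 18.3 and 15.9 CPM in sham replicates 1, 2 and 3 and 26.1, 35.2 and 27.4 CPM in TAC replicates 1, 2 and 3, with no overlap and a difference of 0.79 on the log2 scale (SE 0.15; adjusted p = 0.0471, edgeR). The median of the list was 0.30, with 9 genes higher and 3 lower at an unadjusted p under 0.05, as were 16.3% and 9.26% of all tested genes. Genes named in the following sentences were chosen after their values were seen. The one-carbon enzyme gene Mthfd2 was at 2.0, 2.10 and 2.17 CPM in sham and 4.03, 4.73 and 8.51 CPM in TAC (a log2 difference of 1.46 with SE 0.31, adjusted p = 0.0585, edgeR), and the amino acid transporter gene Slc3a2 at 39.8, 41.2 and 44.3 CPM in sham and 49.2, 93.0 and 95.7 CPM in TAC (a log2 difference of 0.92 with SE 0.24, adjusted p = 0.0733). In both all TAC values were above sham. Other targets of ATF4 were lower in all TAC libraries. The arginine transporter gene Slc7a1 was at 71.9, 92.8 and 80.5 CPM in sham and 45.4, 51.2 and 61.5 CPM in TAC (a log2 difference of -0.63 with SE 0.15, adjusted p = 0.0656), and Cth, of cysteine synthesis, at 2.05, 1.58 and 1.85 CPM in sham and 1.38, 0.521 and 0.595 CPM in TAC (a log2 difference of -1.12 with SE 0.42, adjusted p = 0.148). Atf3 and Gdf15, both induced by many kinds of stress, were near the sham level in TAC replicate 1 and high in at least 1 other TAC library. Atf3 was at 3.34, 4.86 and 5.31 CPM in sham and 4.89, 18.0 and 15.5 CPM in TAC, and Gdf15 at 0.411, 0.147 and 0.785 CPM in sham and 0.774, 1.56 and 8.72 CPM in TAC. Their adjusted p-values were 0.0916 and 0.104 in edgeR.

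Overlapping genes limit a few values, since the labels do not state that the library kit kept the strand. Of the 35 members, Manf, Pdia3, Pdia6, Ddit3, Ppp1r15a, Syvn1 and Derl2 share exonic bases with another gene of the table, at most 231 of 8049 bases, in Derl2. Derl2 and Ddit3 had a fractional count in 1 library each, and no other member had one.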

How the data were processed

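Heart samples of mice, 6 in all, were compared, 3 sham and 3 TAC, grouped and numbered by their titles. As the labels' protocols state, oligo(dT)-enriched RNA was made into libraries with a NEBNext Ultra kit and sequenced on a NovaSeq. Per the file headers, the deposited table gives an estimated count and an FPKM per gene and library. Per the submitters' processing notes, HISAT2, Bowtie2 2.2.8, StringTie 1.3.1, DESeq2 and GRCm38 were used, with no role stated for each tool. Symbols and coordinates came from GENCODE M21 (GRCm38), which matched 22255 of 22298 identifiers.

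The estimated counts, rounded, went into edgeR (version 4.0.16, R version 4.3.3) after filterByExpr at its minimum count of 10 and TMM scaling, and glmQLFTest was applied, two-sided, with Benjamini-Hochberg adjustment over 13708 genes and a threshold of 0.05. The SE is the log2 fold change divided by the square root of F, an approximation. CPM are on TMM-scaled library sizes. The test was tried on simulated counts with 200 changed genes. Libraries of a group differed beyond sampling noise (ratio of chi-square to its degrees of freedom 11.7 to 18.1 among sham and 78.2 to 100.2 among TAC libraries), so each counted as 1 sample. Alternatives used DESeq2 1.42.0, limma 3.58.1 (voom, and log2 of FPKM plus 1 or 0.1), other filters, a replicate block and each library left out.

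The members, arms, marker lists and pathway lists were chosen with earlier results of these data known. Named genes were all members, up to 3 called genes of each pathway list or else its most abundant one, and those marked as chosen after their values were seen. Promoter windows came from RefSeq (GRCm38.p6). Protein sequences were not used here.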

Additional observations from a re-analysis of the deposited data

How the results depend on the processing

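Small counts of calls moved with nearly every setting, and some sizes moved by over 1.5 times with 1 library left out. Edem1 went from 1.40 to 0.70 on the log2 scale without TAC replicate 2, Calr from 0.40 to 0.13 and P4hb from 0.29 to 0.08 without TAC replicate 3, and Chac1 from -0.92 to -1.59 and Herpud1 from -0.46 to -0.83 without TAC replicate 1. Counts are given in the order members higher, ATF6 arm higher, other pathway genes higher, all genes higher and all genes lower, and were 3, 3, 3, 153 and 74 as reported. They were 12, 8, 21, 1063 and 594 with DESeq2's Wald test, which also called 3 IRE1 members and 1 PERK member higher and 3 other pathway genes lower. They were 0, 0, 0, 48 and 26 with the replicate block, where the adjusted p was 0.0981 for Hspa5, 0.0640 for Manf and 0.0580 for Sdf2l1. With limma-trend on log2 FPKM they were 0, 0, 2, 59 and 66 at a pseudocount of 1 and 0, 0, 2, 64 and 56 at 0.1. With limma-voom 96 genes in all were higher. Leaving out 1 library gave 0 to 18 members higher, 0 to 2 members lower, 0 to 10 ATF6, 0 to 6 IRE1 and 0 to 2 PERK members higher, 0 to 40 other pathway genes higher and 0 to 7 lower, 4 to 1837 genes higher and 8 to 1392 lower. The high end was without TAC replicate 1 in each, and the cause was not tested. DESeq2 size factors, no filter on low counts and a minimum count of 100 left these counts within 1.5 times.

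Signs turned for 4 members with log2 fold changes near 0. Derl1 was at -0.00053 with DESeq2 size factors and -0.0019 with DESeq2, and -0.042 to 0.064 with 1 library left out. Derl2 was at -0.0073 and -0.0088 in the first 2, at -0.0059 with no filter, and at -0.061 to 0.081 with 1 library left out. Ppp1r15a was at -0.019 with limma-voom, -0.0055 with the replicate block, -0.017 and -0.024 on log2 FPKM with pseudocounts of 1 and 0.1, and -0.15 to 0.33 with 1 library left out. Ern1 was at -0.25 to 0.049 with 1 library left out. The replicate numbers share no stated litter or day. Deviations of same-numbered sham and TAC libraries correlated at 0.011, -0.11 and -0.024, and those of different numbers at -0.064 to 0.11. With 3 libraries per group, these values cannot show whether a number marks a shared batch. Depth limited Trib3, Chac1 and Sdf2l1 most, and Derl3 in every library but TAC replicate 2.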

Other observations

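ERSE or ERSE-II letters were also present in the windows of 38 genes outside the list, of which 13 could be matched by symbol to a tested gene. Matching by symbol was incomplete. It missed Ero1b, which was tested under the name Ero1lb, with a log2 difference of 0.86 (SE 0.37, adjusted p = 0.189, edgeR). None of the 13 was called in edgeR, where the lowest adjusted p was 0.0583. A positive log2 fold change was found in 8 of them, as in 7256 of all 13708 tested genes. The median over the 13 was 0.19, against 0.03 over all tested genes. The values ran from -0.81 for Acacb, a carboxylase that restrains fatty acid oxidation, to 0.97 for Hnrnpa3, an RNA-binding protein. These are given as values, with no test of the element.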
